A study of Mus musculus with 8 samples.

Results

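RNA sequencing of the prefrontal cortex (PFC) was examined for 47 genes of the interferon response and of antigen presentation, chosen by symbol. Of these, 43 had values among the 15039 genes of the table, and *Isg15*, *Nlrc5*, *Tlr9* and *H2-Ab1* were not analysed here. The 8 libraries came from wild-type male C57BL/6NCrljOri mice, injected on both sides of the PFC at 6 weeks of age with an adeno-associated virus (AAV) and dissected 4 weeks later. The 4 RNF146 libraries came from mice given AAV2/1-hsyn-RNF146-eGFP and the 4 eGFP libraries from mice given AAV2/1-hsyn-eGFP, so virus and eGFP were shared by both groups and the comparison holds no animal without virus. According to the paper, sequencing used mice in which Rnf146 overexpression and social deficits had been established. The hsyn (synapsin) promoter drives the transgene in neurons, whereas the dissected tissue also contains glia, vessels and any cortex that the virus did not reach. It is not stated in the sources used here whether a library held 1 mouse or more. The p-values therefore measure the spread between same-numbered pairs of these libraries, as described below.

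Type I interferons are secreted by cells that detect foreign nucleic acid, and they act through a receptor made of Ifnar1 and Ifnar2. The receptor activates factors such as Stat2 and Irf9, which bind the interferon-stimulated response element (ISRE) in front of antiviral genes. Interferon-γ acts at another element, the γ-activated sequence (GAS), and raises the genes that present peptides to T cells. MHC class I molecules consist of a heavy chain, such as H2-K1 or H2-D1, and the light chain B2m. They are loaded with peptides that Tap1 and Tap2 carry into the endoplasmic reticulum. In the brain, microglia, endothelial cells and infiltrating myeloid cells are known for high levels of many of these genes.

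The promoters are shown first for genes that differ in the results that follow. *B2m*, *H2-K1* and *H2-D1* had the lowest mean differences of the 43 genes. *H2-T22*, a nonclassical class I gene, and *Ifit3*, an antiviral gene, had means near 0. Each line holds the 250 bases before the start site (RefSeq, GRCm38.p6), and capitals mark either the ISRE core (GAAA, any 2 bases, GAAA) or its form that begins with 1 A fewer, GAANNGAAA, on either strand. The forms differ in spacing, so a full core does not by itself match the shorter one.
B2m (chr2:122147437-122147686, plus strand): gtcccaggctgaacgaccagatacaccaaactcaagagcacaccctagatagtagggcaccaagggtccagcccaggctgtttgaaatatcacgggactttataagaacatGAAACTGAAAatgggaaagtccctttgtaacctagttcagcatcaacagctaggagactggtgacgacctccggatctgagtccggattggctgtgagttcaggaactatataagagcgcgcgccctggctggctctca
H2-K1 (chr17:34000348-34000597, minus strand): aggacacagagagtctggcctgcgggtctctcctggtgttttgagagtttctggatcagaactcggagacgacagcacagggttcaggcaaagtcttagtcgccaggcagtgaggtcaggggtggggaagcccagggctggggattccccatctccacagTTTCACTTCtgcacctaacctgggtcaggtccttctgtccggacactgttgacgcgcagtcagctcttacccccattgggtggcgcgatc
H2-D1 (chr17:35262844-35263093, plus strand): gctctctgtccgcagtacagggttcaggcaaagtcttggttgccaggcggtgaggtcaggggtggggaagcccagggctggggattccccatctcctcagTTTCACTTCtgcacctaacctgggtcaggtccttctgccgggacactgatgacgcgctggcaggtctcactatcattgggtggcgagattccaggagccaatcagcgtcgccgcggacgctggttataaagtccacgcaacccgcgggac
H2-T22 (chr17:36042743-36042992, minus strand): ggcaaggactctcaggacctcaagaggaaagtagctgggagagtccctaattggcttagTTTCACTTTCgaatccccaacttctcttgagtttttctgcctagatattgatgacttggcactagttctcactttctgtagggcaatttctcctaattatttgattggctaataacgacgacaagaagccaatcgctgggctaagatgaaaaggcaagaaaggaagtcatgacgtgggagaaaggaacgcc
Ifit3 (chr19:34583279-34583528, plus strand): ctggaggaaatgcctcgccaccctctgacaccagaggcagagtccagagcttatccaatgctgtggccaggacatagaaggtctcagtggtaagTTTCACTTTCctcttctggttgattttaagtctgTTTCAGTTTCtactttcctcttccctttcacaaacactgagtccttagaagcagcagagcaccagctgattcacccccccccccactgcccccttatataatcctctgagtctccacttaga

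*B2m* carried the full ISRE core 139 to 130 bases before its start. *H2-K1* and *H2-D1* did not carry it in this window and shared the shorter form, 90 to 82 and 150 to 142 bases before their starts. *H2-T22* had 1 full core and *Ifit3* had 2. The shorter form was searched after the values of *H2-K1* and *H2-D1* had been seen. Promoter windows, reaching 50 bases past the start, were found for 39 of the 43 genes, and *Dhx58*, *Sting1*, *Ifi27* and *Tap2* had no entry. The full core was in 19 of the 39 (48.7%), against 3.44% of all promoters in the table, and all 5 interferon-induced GTPases had it. The shorter form was in 10 of 39 (25.6%, against 7.52%). The GAS core TTCNNNGAA was in 12 of 39 (30.8%, against 8.3%) and in none of the 7 antigen presentation genes with an entry. In these comparisons a gene counted if any of its windows held the motif, whereas the shares of all promoters count single windows. The median difference was -0.03 for the genes with the full core and -0.01 for the 20 genes without it.

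The deposited values are on a log2 scale and run from 7.86 to 18.8, and the libraries of 1 replicate number had been centred together. The eGFP and RNF146 values of a gene add up to the same sum for each of the 4 numbers, and these sums spread by at most 1.4e-13. A gene therefore holds its mean and 4 pair differences, given here as the RNF146 value minus the eGFP value, and the 2 groups of a gene do not overlap exactly when all 4 differences have 1 direction. Of the 43 genes, 38 had a mean below the median of all genes (9.87), including 25 in the lowest 25% of the table. Differences were tested with limma across all 15039 genes, blocking on replicate number, and a gene was called at a Benjamini-Hochberg adjusted p of 0.1 or less. Depth is unknown because the table holds no counts. The overexpressed gene itself, *Rnf146*, differed by 2.82, 2.51, 2.66 and 2.58 in the 4 pairs (adjusted p = 3.2e-07, limma).

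No gene of the interferon response or of antigen presentation was called by limma with the block (0 of 43), against 1.25% of all genes, or 0.818% higher and 0.432% lower. At an unadjusted p below 0.05 there were 4 of 43 (9.3%) against 12.4% of all genes, with *Tlr3* higher (6.45% of all genes) and *B2m*, *H2-K1* and *H2-D1* lower (5.98%). The median difference was -0.03, with 26 genes below and 17 above 0, beside a median of 0.00 and 49.5% of genes below 0 in the whole table. Of the 43 genes, 8 had 1 direction in all 4 pairs (18.6%), against 20.6% of all genes. These were *Tlr3* and *Rsad2*, which were higher (10.4% of all genes), and *Irf1*, *Ifih1*, *Ifitm2*, *Tap2*, *H2-K1* and *H2-D1*, which were lower (10.2%). Without the replicate block, 8 of 43 were called (18.6%), 2 higher and 6 lower, against 21.5% of all genes.

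**Figure D1:**
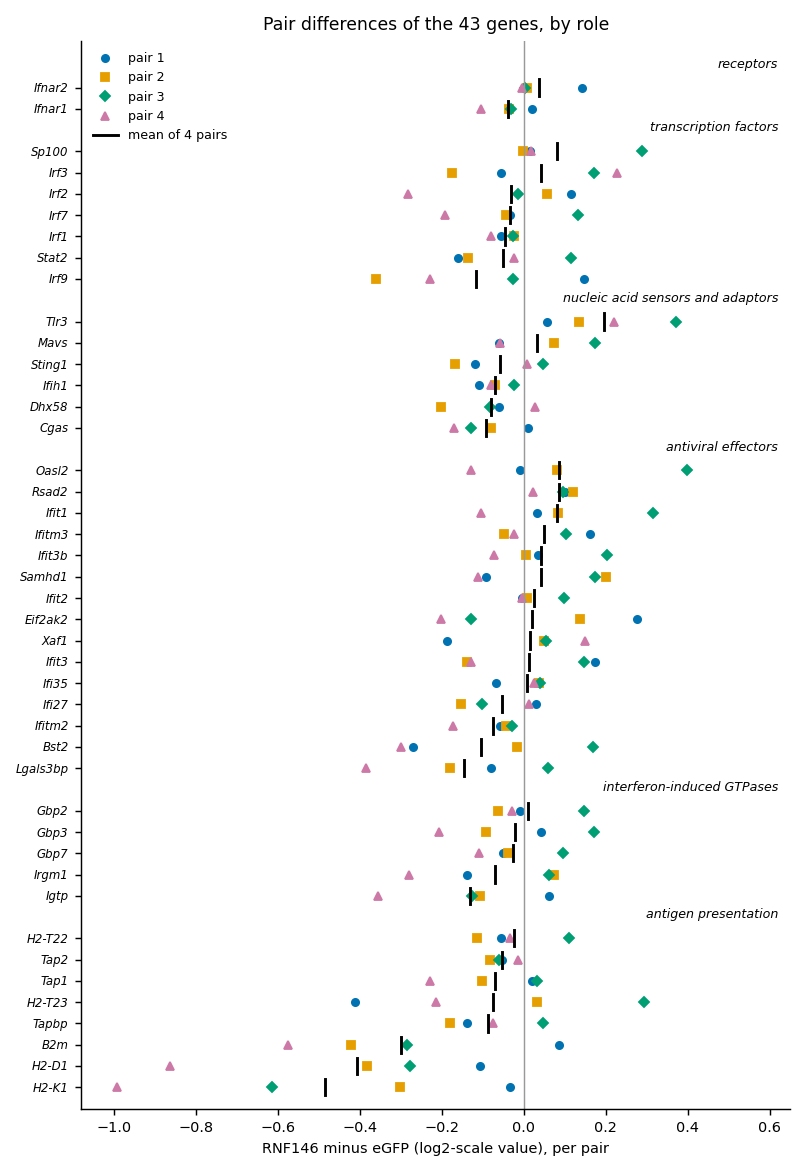
Difference between the RNF146 and eGFP library (log2-scale value, horizontal axis) of each of the 43 genes, grouped by role. Symbols are the 4 pairs and black bars their mean; *H2-K1*, *H2-D1* and *B2m* have the lowest means, -0.49, -0.41 and -0.30, and pair 4 is the leftmost symbol for 23 genes.

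The heavy chains of classical MHC class I and their light chain had the lowest means of all members. *H2-K1* (chromosome 17 of GRCm39, 34214987 to 34219321, minus strand) presents peptides from inside the cell to CD8 T cells. Its values were 9.84, 9.98, 10.13 and 10.32 in eGFP libraries 1 to 4 and 9.81, 9.67, 9.52 and 9.33 in the RNF146 libraries with the same numbers. Every RNF146 library lay below every eGFP library, barely so in pair 1. The mean difference was -0.49 ± 0.41 (SD, n = 4 pairs, SE 0.13), and limma gave an adjusted p of 0.188.

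*H2-D1* (chromosome 17, 35481691 to 35486475, plus strand) encodes the other classical heavy chain of this strain. It had 10.24, 10.38, 10.33 and 10.62 in the eGFP libraries and 10.14, 9.999, 10.05 and 9.76 in the RNF146 libraries. As for *H2-K1*, the groups did not overlap and pair 4 was farthest apart. The mean difference was -0.41 ± 0.32 (SD, n = 4 pairs). Its limma adjusted p of 0.169 was the lowest p of the 43 genes. *B2m* (chromosome 2, 121977957 to 121983594, plus strand), named after its values were seen, had 10.71, 10.96, 10.90 and 11.04 in the eGFP libraries and 10.80, 10.54, 10.61 and 10.47 in the RNF146 libraries. Here pair 1 went the other way, and the groups overlapped. Its mean was -0.30 ± 0.28 (SD, n = 4 pairs, limma adjusted p = 0.244).

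These 3 genes stood near the bottom of the whole table in pair 4 but not in pair 1. In pair 4, only 3 genes had a lower difference than *H2-K1*, 4 than *H2-D1* and 15 than *B2m*. In pair 1, there were 6060, 3337 and 11103 such genes. Averaged over the 3 genes, the difference was -0.02, -0.37, -0.39 and -0.81 in pairs 1 to 4. With pair 1 left out, limma called all 3 genes as lower, with adjusted p-values of 0.049, 0.072 and 0.028 for *H2-K1*, *H2-D1* and *B2m*, where 0.791% of all genes were called lower. With pairs weighted by their spread, limma called *H2-K1* and *H2-D1* as lower, against 0.891% of all genes. With pair 4 left out, their differences were -0.32, -0.26 and -0.21, and none was called. That fit called 14 of all 15039 genes, and 0 of them were lower. Over all alternatives that kept the block, the adjusted p ran from 0.049 to 0.443 for *H2-K1*, from 0.072 to 0.443 for *H2-D1* and from 0.028 to 0.606 for *B2m*.

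**Figure D2:**
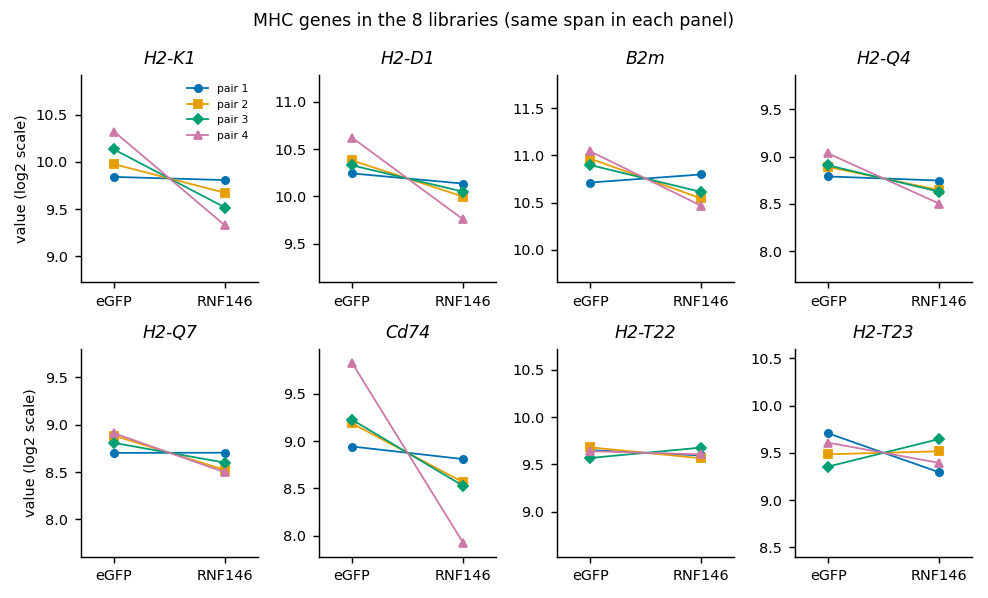
Values (log2 scale) of 8 MHC genes in the eGFP and RNF146 library of each pair, with the same vertical span in each panel. Lines cross because values were centred within pairs; *H2-K1*, *H2-D1*, *B2m*, *H2-Q4*, *H2-Q7* and *Cd74* slope down in pairs 2, 3 and 4 and have their flattest line in pair 1, whereas *H2-T22* and *H2-T23* slope in both directions.

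The other antigen presentation genes lay closer to 0. *H2-T22* had pair differences of -0.06, -0.12, 0.11 and -0.03 and *H2-T23*, which encodes the nonclassical molecule Qa-1, had -0.41, 0.03, 0.29 and -0.21. Neither gene had 1 direction, and *H2-T23* averaged -0.08 with an SD of 0.30 over 4 pairs. *Tap2* was lower in all 4 pairs by a narrow margin, with differences of -0.05, -0.08, -0.06 and -0.01 (adjusted p = 0.677, limma). *Tap1* averaged -0.07 ± 0.12 and *Tapbp*, which encodes tapasin, -0.09 ± 0.10 (SD, n = 4 pairs). Averaged over these 5 genes, the difference was -0.13, -0.09, 0.08 and -0.11 in the 4 pairs.

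Class I genes resemble each other, so reads may be split between them. Of all 31-base words in the coding transcripts of *H2-K1* (GENCODE vM39), 22.7% also occur in another gene, and 25% of those of *H2-D1* and 19.3% of those of *H2-T23* do. The coding transcripts of *B2m* share 0 of 2203 such words with those of any other gene. Only coding transcripts were compared, so words shared with other transcripts are not counted here. In the promoters above, *H2-K1* and *H2-D1* have an identical stretch of 47 bases. Among the antiviral genes, *Ifit3b* shares 58.0% of its words and *Ifit3* 39.4%, nearly all of them with each other, so their separate values are uncertain.

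The antiviral effectors, the products most directly induced by type I interferon, were centred on 0. Of 15 genes, 11 had a mean above and 4 below 0, with a median of 0.02. Several were weakly expressed, with mean values of 8.40 for *Ifit1*, 8.64 for *Oasl2* and 8.31 for *Rsad2*, where the lowest value in the data was 7.86. Others, such as *Samhd1* (9.82), lay higher. Low levels limit what can be read from small differences. *Ifit1*, which binds viral RNA, had differences of 0.03, 0.08, 0.32 and -0.10, and *Oasl2* had -0.01, 0.08, 0.40 and -0.13. *Ifit3* had 0.17, -0.14, 0.15 and -0.13, which averaged 0.01 ± 0.17 (SD, n = 4 pairs). All 3 genes had differences on both sides of 0, and all 3 were lower in pair 4 and higher in pair 3.

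*Rsad2*, the antiviral enzyme viperin, had values of 8.26, 8.25, 8.26 and 8.30 in the eGFP libraries and 8.36, 8.37, 8.36 and 8.32 in the RNF146 libraries. The groups did not overlap, but the mean difference was small, 0.08 ± 0.04 (SD, n = 4 pairs, limma adjusted p = 0.442). *Ifitm2*, which restricts viral entry, had differences below 0 in all 4 pairs, of -0.06, -0.04, -0.03 and -0.17 (adjusted p = 0.528). *Lgals3bp*, a secreted glycoprotein, had the lowest mean of the effectors. Its values were 9.44, 9.49, 9.37 and 9.59 in the eGFP libraries and 9.36, 9.31, 9.43 and 9.21 in the RNF146 libraries, and pair 3 went the other way (mean -0.15 ± 0.19, SD, n = 4 pairs). *Bst2*, which tethers budding virus, averaged -0.10 ± 0.22 and had -0.27, -0.02, 0.17 and -0.30 in the pairs.

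Sensors of nucleic acid held the highest mean of all 43 genes, that of *Tlr3*. *Tlr3* (chromosome 8, 45848702 to 45864117, minus strand) encodes the endosomal receptor for double-stranded RNA. Its values were 9.09, 9.05, 8.93 and 9.01 in the eGFP libraries and 9.15, 9.19, 9.30 and 9.23 in the RNF146 libraries, with no overlap. The mean difference was 0.20 ± 0.13 (SD, n = 4 pairs, limma adjusted p = 0.226) that ran from 0.134 to 0.522 over the alternatives with the block. *Ifih1*, the cytosolic sensor MDA5, was lower in all 4 pairs, with differences of -0.11, -0.07, -0.02 and -0.08. *Cgas*, the sensor of cytosolic DNA, had 0.01, -0.08, -0.13 and -0.17, and averaged -0.09 ± 0.08 (SD, n = 4 pairs). *Dhx58*, *Mavs* and *Sting1* had means between -0.08 and 0.03, smaller than or about as large as their spread.

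The 2 receptor subunits had means of -0.04 and 0.04. *Ifnar1* had differences of 0.02, -0.04, -0.03 and -0.11, and *Ifnar2* had 0.14, 0.01, 0.00 and -0.00. Among the 7 transcription factors, the means lay between -0.12 for *Irf9* and 0.08 for *Sp100*. *Irf9*, the DNA-binding partner of Stat2, had 0.15, -0.36, -0.03 and -0.23 in the pairs. *Sp100*, a component of nuclear bodies, owed its mean to pair 3, with 0.01, -0.00, 0.29 and 0.02. *Irf1*, a factor induced by interferon-γ, was lower in all 4 pairs, with differences of -0.06, -0.02, -0.03 and -0.08 (adjusted p = 0.715, limma). *Irf2*, *Irf3*, *Irf7* and *Stat2* had neither a shared direction nor a mean beyond -0.05 or 0.04.

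The 5 GTPases, which act on the membranes of intracellular pathogens, had a median difference of -0.03. The lowest mean was that of *Igtp*, whose pair differences of 0.06, -0.11, -0.13 and -0.35 averaged -0.13 ± 0.17 (SD, n = 4 pairs). *Irgm1* followed with -0.14, 0.07, 0.06 and -0.28. All 5 GTPases were lower in pair 4, and 4 of 5 were higher in pair 3.

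The 43 genes lay on opposite sides of 0 in pairs 3 and 4 by their median. The difference was lowest in pair 4 for 23 of the 43 genes (53.5%), against 22.5% of all genes, and lowest in pair 3 for 0 of 43, against 24.6%. It was highest in pair 3 for 22 of 43, against 26.6% of all genes. In pair 4, 34 of the 43 (79.1%) were below 0, against 50.8% of all genes, and in pair 3, 15 of 43 (34.9%), against 48.9%. The medians of the 43 genes were -0.03, -0.04, 0.06 and -0.10 in the 4 pairs, whereas those of all genes lay between -0.0020 and 0.0037. The spread between pairs was above the all-gene median in 28 of the 43 genes.

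A list of 85 further symbols of the same pathways had 57 in the table. Limma with the block called 0 of the 57, and 8 had an unadjusted p below 0.05 (14% of the 57), against 12.4% of all genes. All 8 were lower, a direction taken by 5.98% of all genes. The genes with the smallest p were *H2-Q4*, *Ikbke*, *Cd74*, *H2-Q7* and *Irf8*. *H2-Q4* and *H2-Q7* are nonclassical class I genes, with pair differences of -0.04, -0.24, -0.28 and -0.53 and of 0.00, -0.36, -0.21 and -0.41. *H2-Q4* and *H2-Q7* share 44.6% and 33.2% of their 31-base words with coding transcripts of other genes.

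*Cd74*, the invariant chain of MHC class II, had the largest difference of the pathway genes. Its values were 8.94, 9.19, 9.23 and 9.83 in the eGFP libraries and 8.81, 8.57, 8.53 and 7.93 in the RNF146 libraries. The mean was -0.84 ± 0.75 (SD, n = 4 pairs, limma adjusted p = 0.192), and in pair 4 no gene of the table had a lower difference (0 genes). Its RNF146 value in that pair, 7.93, lay close to the lowest value in the data, 7.86. The mean values of *Cd74*, *H2-Q4* and *H2-Q7* (8.88, 8.77 and 8.70) were within the lowest 25% of the table. *H2-Q4*, *H2-Q7* and *Cd74* were the 3 pathway genes that limma called without pair 1, with adjusted p-values of 0.058, 0.047 and 0.067. All 3 were lower, where 0.791% of all genes were called lower. As for *H2-K1*, *H2-D1* and *B2m*, their differences in pair 1 (-0.13 to 0.00) were smaller than in each of the other pairs (-0.21 or lower).

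**Figure D3:**
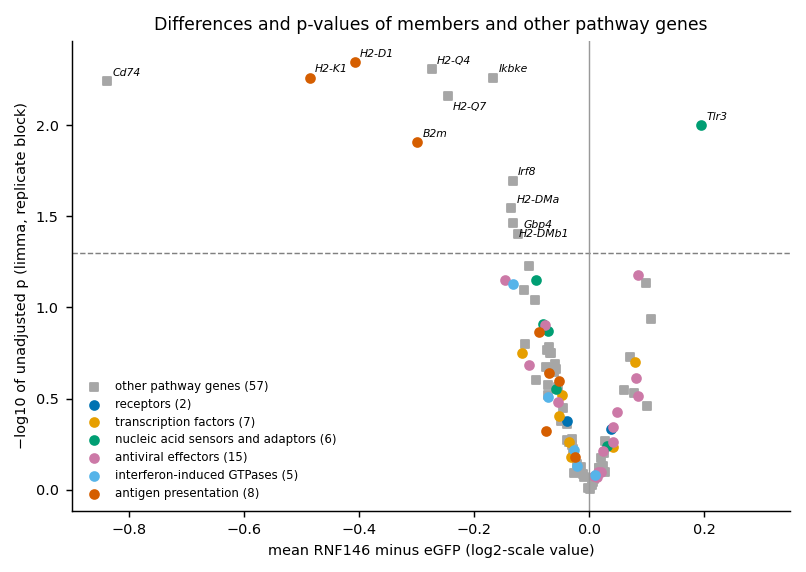
Mean difference between RNF146 and eGFP libraries (log2-scale value) against −log10 of the unadjusted p from limma with the replicate block, for the 43 genes by role (circles) and the 57 other pathway genes (squares). The dashed line marks an unadjusted p of 0.05; 8 of the 11 genes above it on the left are MHC genes, and *Tlr3* is the only one on the right.

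Markers of other cell types differed between the groups as well, and their part in the results was not tested. All 12 microglial markers had a mean below 0, against 49.5% of all genes. Of the 12, 8 were lower in all 4 pairs, against 10.2% of all genes. The list means were -0.16, -0.23, -0.08 and -0.13 in pairs 1 to 4. The mean level of this list lay between 10.07 and 10.14 in the eGFP libraries and between 9.91 and 9.99 in the RNF146 libraries. *C1qb*, a complement gene of microglia, was called as lower (-0.26 ± 0.06, SD, n = 4 pairs, adjusted p = 0.068, limma). In bulk tissue, fewer cells of a type and less RNA per cell cannot be told apart.

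*Lyz2*, a lysozyme gene of myeloid cells, was the other marker of immune cells that limma called. Its differences were -0.33, -0.59, -0.96 and -0.81, with an adjusted p of 0.024. Of the 10 genes in its list of reactive microglia and infiltrating myeloid cells, 4 were in the table, with list means of -0.03, -0.11, -0.23 and -0.26. *Lyz2* had the largest difference of the 4 in every pair. *Cd68*, *Spp1* and *Lpl* had differences of -0.03, 0.00 and 0.07 over all pairs and none had 1 direction, although all 4 genes were below 0 in pair 4. Lymphocytes were represented by 3 of 11 markers, and *Cd3e* and *Cd8a* were not analysed here. Of these 3, *Ptprc*, which all leukocytes express, was lower in all 4 pairs (-0.18, -0.42, -0.15 and -0.11, adjusted p = 0.193). The other 2, *Cd4* and *Trbc2*, averaged 0.21 and -0.01 and had both directions among their pairs.

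Lists of 8 oligodendrocyte and 8 striatal genes set pair 1 apart from the rest. Oligodendrocyte genes averaged -0.14 in pair 1 and 0.49, 0.97 and 0.55 in pairs 2 to 4, and genes of striatal medium spiny neurons -0.09, 1.35, 0.76 and 0.31. The mean levels of the oligodendrocyte list ran from 12.2 to 12.8 in eGFP libraries and from 12.7 to 13.2 in RNF146 libraries, and those of the striatal list from 9.81 to 10.5 and from 10.4 to 11.2. The 10 endothelial markers averaged -0.01, -0.05, 0.10 and 0.02, with the highest value in pair 3. The 7 meningeal and perivascular fibroblast markers averaged -0.13, -0.14, 0.06 and -0.17, and all 7 had a mean below 0, against 49.5% of all genes. Markers of pericytes and smooth muscle averaged 0.06, 0.14, 0.10 and -0.02, and those of astrocytes -0.03, -0.04, 0.06 and -0.02. The 8 cortical excitatory neuron markers, all present, averaged -0.21, -0.37, -0.08 and -0.21. Of these, limma called *Slc17a7* (-0.30, adjusted p = 0.092) and *Neurod2* (-0.30, adjusted p = 0.069) as lower, against 0.432% of all genes. Of 7 ependymal markers, 3 were in the table, and all 3 were higher in all 4 pairs, against 10.4% of all genes. Limma called *Foxj1* (0.32, adjusted p = 0.049) and *Rarres2* (0.35, adjusted p = 0.063) as higher, against 0.818% of all genes.

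**Figure D4:**
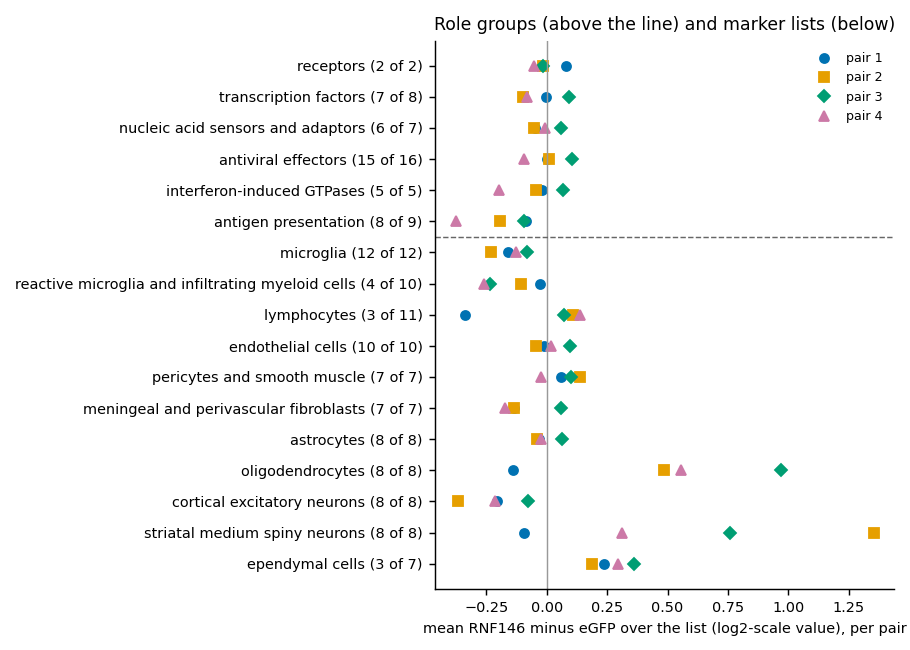
Mean difference over each list in each pair (log2-scale value, horizontal axis), for the role groups above the dashed line and for marker lists below it, with the number of genes in the table of those listed. The antigen presentation, microglial, myeloid and cortical excitatory neuron lists lie below 0 in all 4 pairs; the oligodendrocyte and striatal lists lie below 0 in pair 1 and above 0 in pairs 2, 3 and 4.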

How the data were processed

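PFC RNA of 4 RNF146 and 4 eGFP libraries was sequenced with a TruSeq stranded mRNA kit. The authors used Cutadapt for trimming and Salmon 1.9.0 for transcript abundance, against GENCODE vM30 (GRCm39). The deposited log2 values carry no count or depth. Their normalization and the centring within same-numbered pairs, read from the values, are not described in the sources used here. DESeq2 is listed in the submitters' processing notes.

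Groups and replicate numbers came from the sample labels, and the 8 columns were matched by name. The R package limma 3.58.1 (R version 4.3.3, eBayes with trend) gave all p-values, with the replicate number as a block because the centring leaves 3 residual degrees of freedom in place of 6. The centring fixes the correlation of same-numbered deviations at -1. Benjamini-Hochberg adjustment covered all 15039 genes. On simulated data with 200 of 15039 genes shifted by 0.5, the fits with and without the block were checked for recovery and false calls. The members and lists were chosen with earlier results of these data known. Genes given in full were the 2 largest absolute means per role, those with 1 direction in all pairs, and the 5 pathway genes with the smallest p; *B2m* and the other genes named beside them were chosen after their values were seen. Alternatives were no block, no trend, robust variances, pair weights, median centring, quantile normalization, removal of the lowest 25% of genes, an adjusted p of 0.05 and each pair left out. No pseudocount applies to log2 values. Positions are from GENCODE vM39 on GRCm39.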

Additional observations from a re-analysis of the deposited data

Results flagged for a closer look

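In 4 of the 43 genes, 1 of the 4 pair differences lay far from the other 3 by Dixon's criterion for 4 values. Chance flags about 1 in 20 such groups. *Ifnar2* was high in pair 1, at 0.14. *Sp100* was high in pair 3, at 0.29, and *Ifit2* was high in the same pair, at 0.098. *Ifi35* was low in pair 1, at -0.069. None of these 4 genes was called, and pair 4 of the class I genes was not far enough from the others to meet the criterion.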

How the results depend on the processing

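Of the 43 genes, 0 were called under the design used and also with median centring, quantile normalization, no variance trend, robust variances, an adjusted p of 0.05 or the lowest 25% of genes removed, which left 18 of them. Without the replicate block 8 of the 43 (18.6%) and 14 of the 57 other pathway genes (24.6%) were called, against 21.5% of all genes. With pair weights 2 of the 43 (*H2-K1* and *H2-D1*) and 3 of the 57 (*H2-Q4*, *H2-Q7* and *Cd74*) were called. All 5 were lower, against 0.891% of all genes. Leaving out 1 pair gave 0 to 3 of the 43 and 0 to 3 of the 57, with all calls in the fit without pair 1. Those calls were all lower, against 0.791% of all genes. Over the whole table, 188 genes were called under the design used, 355 with pair weights and 421 without pair 1. Without pair 2, 3 or 4, the calls were 42, 169 and 14, of which 3, 55 and 0 were lower. The fits without pair 2 or 4 thus called few or no genes lower anywhere in the table. The fit without the block counts the centred values as independent, and the cause of the other changes was not tested. The median difference of the 43 genes ran from -0.05 to -0.02. That of *Rnf146* ran from 2.58 to 2.69 and was called under every alternative run. On leaving out 1 pair, the difference of 17 of the 43 genes took both signs, *H2-T23*, *H2-T22*, *Ifit3* and *Irf2* among them. Depth is unknown and the transformation of the values is not described, which limits what can be read from weakly expressed genes, and most of the 43 are weakly expressed.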

Other observations

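Of the 57 other pathway genes, 15 had 1 direction in all 4 pairs (26.3%), against 20.6% of all genes, and 14 of these were lower (24.6%, against 10.2%). Besides those given here and in the report, they were *Trex1*, *Parp14*, *Gbp4*, *Tapbpl* and *Rfxap*, all lower. The 19 other antigen presentation genes held 7 of the 15. Of 9 genes of receptors and JAK-STAT signaling, *Ifngr1*, *Tyk2* and *Stat3* were lower in all 4 pairs, and the group's median was between -0.07 and 0.06 in each pair. *Ikbke*, a kinase that activates Irf3, had differences of -0.06, -0.24, -0.18 and -0.19 (adjusted p = 0.188, limma), and *Irf8*, a factor of the myeloid lineage, had -0.10, -0.10, -0.24 and -0.10 (adjusted p = 0.295). *Rfx5*, which binds MHC class II promoters, was the one pathway gene of the 57 that was higher in all 4 pairs, by 0.18, 0.08, 0.12 and 0.02. *H2-DMa* and *H2-DMb1*, which load class II molecules, were lower in all 4 pairs, with means of -0.14 ± 0.05 SE and -0.13 ± 0.05 SE and adjusted p-values of 0.330 and 0.352 from limma.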
